A study of Mus musculus with 60 samples.

Results

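The 60 cDNA clones described here differed most between untreated mouse erythroleukemia cells and cells treated for 1 h with DMSO or TSA, among the clones whose change kept its direction when the dyes were swapped. They were drawn from 22656 spotted clones. A clone entered the list if the ratio deposited by the authors (after over before treatment, as log2) was present and had the same sign on all 8 arrays of DMSO 1 h and TSA 1 h, and clones were then ranked by the size of the mean of the 8 values. The list holds 25 clones that were higher after 1 h (called risers below) and 35 that were lower (fallers). The clones carry plate positions as names. The reference gene table matched 0 of those names, so the clones are treated as unnamed transcripts and 4 of them are shown by identifier.

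Mouse erythroleukemia cells are virus-transformed red cell precursors that stop at an immature stage and resume maturation, with haemoglobin synthesis, when an inducer is added. DMSO (dimethyl sulfoxide) and HMBA (hexamethylene bisacetamide) are small polar inducers, and TSA (trichostatin A) inhibits histone deacetylases, the enzymes that remove acetyl groups from histones. Transcripts that change soon after an inducer is added are known in these cells, among them a transient fall of the growth regulators Myc and Myb that precedes commitment. Which of the clones below represent such genes is not known here.

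The highly inducible line T-3-Cl-2-0.fl was cultured with 1.5% DMSO, 5 mM HMBA or 30 nM TSA for 1, 6, 12, 24 or 36 h. RNA from each of these 15 conditions was hybridised together with RNA from the same line before treatment on 4 arrays read in a pair of colours, Cy5 and Cy3, which are technical replicates. On replicates 1 and 2 Cy5 marked the treated cells, and on replicates 3 and 4 the dyes were exchanged. The labels name no untreated culture sampled at the same times and no second culture of any condition. The sources used here do not say whether the before-treatment RNA of all arrays was 1 extract. HMBA 1 h and the later comparisons may thus share it with the arrays that chose the clones.

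The arrays listed 16550 to 21087 clones each, and 14816 clones were tested. Arrays of opposite dye orientation were negatively correlated across clones at 1 h, between -0.386 and -0.290 with DMSO and between -0.116 and -0.0816 with TSA. Of 16300 clones with a value on all 8 first-hour arrays, 567 had the same sign on all of them, 307 higher and 260 lower, while 1291 followed the dye on all of them. At HMBA 1 h the pair of arrays in Cy3 correlated at -0.333 with each other, so that condition has no settled direction and took no part in the choice.

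The values that chose the clones are given as a description. The means of the 8 deposited log2 ratios ran from 0.59 to 1.12 with a median of 0.79 among the risers. Among the fallers they ran from -1.51 to -0.57 with a median of -0.74. The size of the mean had a median of 0.758 over the 60 clones, 0.313 over all 567 clones of 1 sign and 0.0968 over the 16300 clones. The list had no gap at its limit, since the clone ranked 60th had a mean of -0.57 and the clone ranked 61st -0.56. The smallest of a clone's 8 values had a median size of 0.260 among risers and 0.268 among fallers, so many clones came close to 0 on 1 array.

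**Figure D1:**
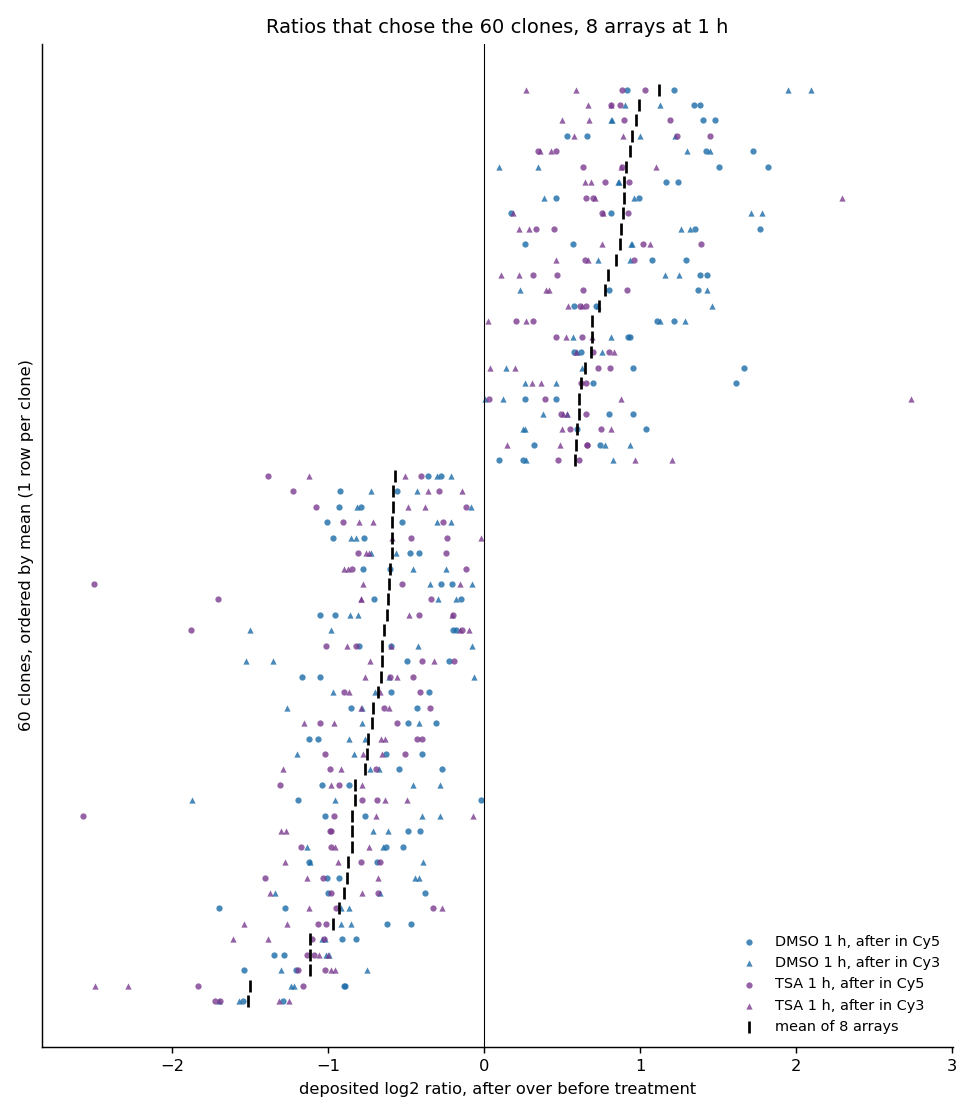
Deposited log2 ratio (x axis) of each of the 60 clones (1 row each) on the 8 arrays that chose them; circles are arrays with the after-treatment RNA in Cy5, triangles those in Cy3, and black ticks the mean of 8 arrays. All points of a clone lie on 1 side of 0 by construction; the means run from -1.51 to 1.12.

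By their medians the risers stood further from 0 with DMSO and the fallers further from 0 with TSA. The risers had a median DMSO mean of 0.87 and a median TSA mean of 0.66, and 18 of the 25 had the higher mean with DMSO. The fallers had a median DMSO mean of -0.72 and a median TSA mean of -0.86, and 15 of the 35 were further from 0 with DMSO. The SD over the 4 arrays of 1 condition had medians between 0.193 and 0.316 in these 4 sets. By dye, the risers had a median of 0.90 on the Cy5 arrays and 0.70 on the Cy3 arrays, and the fallers -0.75 and -0.79.

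The values from here on are log2 ratios computed from the deposited spot intensities. After this normalization 56 of the 60 clones kept the same sign on all 8 first-hour arrays.

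H3113C06 ranked 1st by the deposited ratios and was lower. Its recomputed log2 ratio on replicates 1 to 4 was -1.28, -1.56, -1.70 and -1.57 after 1 h of DMSO, and -1.68, -1.76, -1.40 and -1.34 after 1 h of TSA. The values of the 2 chemicals overlapped, with means of -1.53 ± 0.18 and -1.55 ± 0.21 (SD, n = 4 technical arrays). The median intensity of this clone on the DMSO 1 h arrays was 2936 before and 846 after treatment. With HMBA at 1 h it was at -0.87, 0.0016, -1.83 and -0.71, so 1 of the 4 arrays showed no reduction.

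At later times H3113C06 was lower than before treatment in 12 of 12 conditions. Averaged over the 3 chemicals it was at -1.35 at 6 h (SE 0.14, limma adjusted p = 0.000581), -0.98 at 12 h (SE 0.14, adjusted p = 0.00302) and -0.98 at 24 h (SE 0.14, adjusted p = 0.0038). At 36 h it was at -0.60 (SE 0.14, adjusted p = 0.0343), a call that was lost without replicate 1 (-0.56, limma adjusted p = 0.0782) and with all 15 conditions in the model (adjusted p = 0.0517). The difference of 36 h from 6 h was 0.74 (SE 0.20, 95% interval 0.29 to 1.198), with a limma adjusted p of 0.198. By value the reduction was smaller at 36 h than at 6 h, but that difference did not pass the test.

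H4015E06, the other faller shown, was far below its starting level at every time. Its values after 1 h of DMSO were -0.89, -0.89, -1.13 and -1.24, and after 1 h of TSA they were -1.58, -1.31, -3.29 and -2.65. The TSA values lay below all 4 DMSO values, and the TSA arrays in Cy3 lay far below those in Cy5. In the deposited ratios the values of the 2 chemicals overlapped, since TSA replicate 2 was at -1.16 and DMSO replicates 3 and 4 at -1.24 and -1.22. TSA replicates 3 and 4 were at -2.50 and -2.28 in those ratios. The spot was dim after treatment, with a median intensity of 624 before and 163 after on the TSA 1 h arrays, so the size of the fall is uncertain. With HMBA at 1 h it stood at -1.33, -1.47, -1.04 and -3.36, lower on all 4 arrays. Over the later times it was lower in 12 of 12 conditions, at -1.68 at 6 h (limma adjusted p = 0.00133), -1.69 at 12 h (adjusted p = 0.00164), -1.93 at 24 h (adjusted p = 0.0011) and -1.999 at 36 h (adjusted p = 0.00137), each with an SE of 0.21. Its lowest condition mean was -2.59 ± 0.73 (SD, n = 4 technical arrays) after 36 h of HMBA. The difference of 36 h from 6 h was -0.32, with a 95% interval from -0.996 to 0.36.

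H4023C04 was the highest-ranked riser, and by value it was closest to its starting level at 36 h. It stood at 1.18, 0.90, 1.69 and 2.00 after 1 h of DMSO and at 0.80, 1.198, 0.76 and 0.42 after 1 h of TSA, so the values of the 2 chemicals overlapped. With HMBA at 1 h the values were 0.43, 2.22, 1.19 and 0.51, higher on all 4 arrays. This is a dim spot, with a median before-treatment intensity of 218 on the DMSO 1 h arrays. At 6 h it was at 0.40 averaged over the chemicals (SE 0.11, limma adjusted p = 0.0423), a call lost without replicate 1 (0.30, adjusted p = 0.181) and without replicate 3 (0.28, adjusted p = 0.28). At 12, 24 and 36 h it was at 0.27, 0.14 and 0.085, with limma adjusted p-values of 0.136, 0.541 and 0.726; without replicate 2 the 12 h value was 0.44 and passed (adjusted p = 0.0433).

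H3013D07 was a bright spot, with a median before-treatment intensity of 4745 on the DMSO 1 h arrays. It stood at 1.38, 1.35, 0.90 and 1.13 after 1 h of DMSO and at 0.88, 0.82, 0.66 and 0.81 after 1 h of TSA. All 4 DMSO values lay above the 4 TSA values. With HMBA at 1 h it was at 1.56, 0.97, 1.58 and 1.18. Averaged over the chemicals it rose by 1.00 at 6 h (SE 0.12, limma adjusted p = 0.000849), and it was at 0.56 at 12 h (adjusted p = 0.0129), 0.49 at 24 h (adjusted p = 0.0289) and 0.47 at 36 h (adjusted p = 0.0384). The 24 h call was lost without replicate 4 (0.43, adjusted p = 0.0892). The 36 h call was lost without replicate 1 (0.46, adjusted p = 0.0836) and without replicate 3 (0.42, adjusted p = 0.062), and with arrays scaled to the same spread (0.45, adjusted p = 0.0594).

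By value H3013D07 was higher with HMBA than with the other chemicals at each time from 6 h on. HMBA gave 1.02 ± 0.30 at 12 h and 1.23 ± 0.21 at 36 h (SD, n = 4 technical arrays). With DMSO it was at 0.29 ± 0.26 and 0.26 ± 0.36 at these times, and with TSA at 0.37 ± 0.10 and -0.077 ± 0.15. Over the 4 later times it was lower with TSA than with HMBA by -0.79 (SE 0.14, 95% interval -1.11 to -0.47, limma adjusted p = 0.0136) and higher with HMBA than with DMSO by 0.75 (SE 0.14, 95% interval 0.43 to 1.07, adjusted p = 0.0456). The second call is fragile: its adjusted p was 0.091, 0.0514, 0.0544 and 0.0824 without replicates 1, 2, 3 and 4, 0.0565 with the deposited ratios, and 0.15 with arrays scaled to the same spread, where the TSA and HMBA difference also missed the threshold (-0.61, adjusted p = 0.0604). TSA and DMSO differed by -0.042, with a 95% interval from -0.36 to 0.28.

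**Figure D2:**
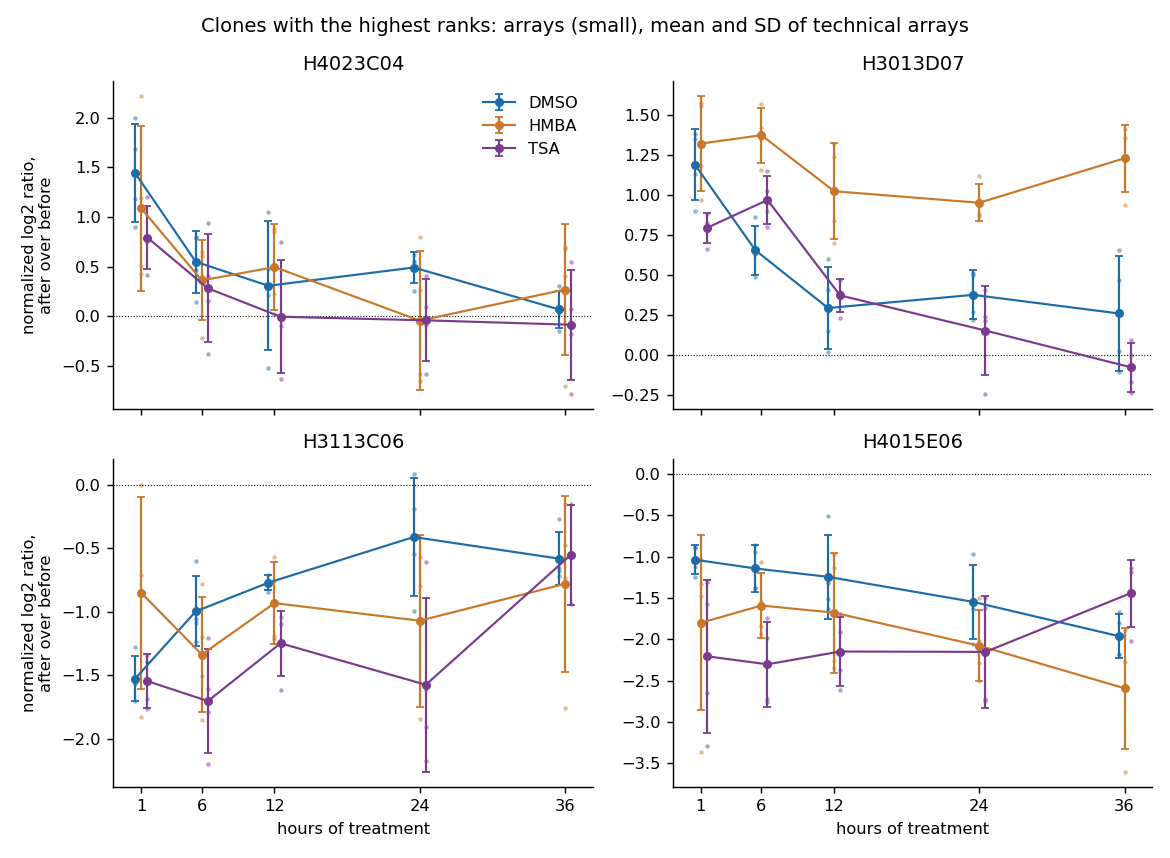
Log2 ratio after over before treatment (y axis) against hours of treatment (x axis) for the 4 clones shown by identifier; small points are single arrays, large points the mean and bars the SD of the technical arrays, with the chemicals set slightly apart. H4015E06 stayed below -1 in every condition mean, while H3013D07 stayed near 1 with HMBA and was at -0.077 after 36 h of TSA.

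HMBA at 1 h gave a look at the same early time in a condition that did not choose the clones. Its arrays may share the before-treatment RNA with those that chose them. An unusual level of a clone in that RNA would then appear here too, which was not tested. The risers had medians of 1.04, 0.67, 1.13 and 0.47 on HMBA 1 h arrays 1 to 4, and the fallers -0.45, -0.35, -0.83 and -0.63. Both sets thus stood on their own side of 0 on each of the 4 arrays, the disagreeing pair in Cy3 included. Single clones varied more. Of 23 risers with 4 values, 15 were higher on all 4 arrays and 0 lower on all 4, where 2.77% of the 15624 clones with 4 values were higher on all. Of 30 fallers with 4 values, 10 were lower on all 4 and 0 higher on all 4, where 4.18% of those clones were lower on all.

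A size of at least 0.5 log2 units on all 4 HMBA 1 h arrays was reached by 7 of the 23 risers in the upward direction, against 0.243% of all clones with 4 values. It was reached by 4 of the 30 fallers in the downward direction, against 0.262%. This condition is 1 pair of RNA extracts and has no test. With the sign of replicate 3 turned the counts were 1 riser and 1 faller, and the medians of the clones' means were 0.40 and -0.069; with the sign of replicate 4 turned they were 1 and 0, with 0.63 and -0.24.

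**Figure D3:**
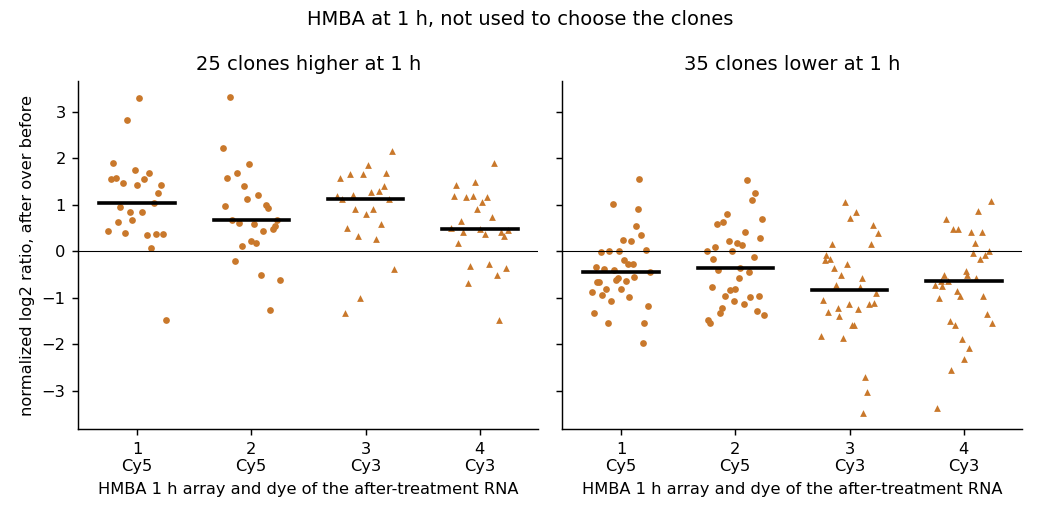
Log2 ratio after over before treatment (y axis) of the 25 risers (left) and 35 fallers (right) on each HMBA 1 h array (x axis, with the dye of the after-treatment RNA); points are clones and bars medians. The medians of the risers lie between 0.47 and 1.13 and those of the fallers between -0.83 and -0.35.

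Most of the clones differed from before treatment at 6 h, in conditions that had no part in choosing them. The tests used the 12 conditions from 6 to 36 h, with 1 value per condition and the time point and the chemical as terms, so each time was averaged over the 3 chemicals. Of the 60 clones, 56 were listed often enough to be tested, 24 risers and 32 fallers. A call has a limma p below 0.05 after Benjamini-Hochberg adjustment over the 14816 clones.

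At 6 h, 22 of the 24 risers were called higher than before treatment and 0 lower, where 5.64% of all clones tested were called higher. Of the 32 fallers, 22 were called lower, where 5.35% of all clones were, and 1 was called higher. The risers had a median of 0.96 at 6 h, with a range from 0.33 to 1.58, and the fallers a median of -0.69, with a range from -3.08 to 0.52. Over all clones the median was 0.0024. The tests at all times share the before-treatment RNA if it was 1 extract, so an unusual level of a clone in that RNA would appear at every time; this was not tested.

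Fewer clones were called at the later times. At 12 h, 9 risers were called higher (6.35% of all clones) and 19 fallers lower (6.53%). At 24 h the numbers were 7 (4.67%) and 14 (3.68%), and at 36 h they were 7 (3.69%) and 12 (3.48%). The risers had medians of 0.31, 0.31 and 0.37 at these times, and the fallers -0.62, -0.43 and -0.33. The 36 h count over both directions, 20 with a faller that was called higher included, was 12 without replicate 3, where 46 members were tested. The 7 risers called higher at 36 h were 4, 4 and 3 without replicates 1, 2 and 3, and the 19 fallers called lower at 12 h were 12 without replicate 3.

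Single clones were called at different sets of times within these numbers. Of the 24 risers, 4 were called higher at all 4 times, 11 at 6 h alone and 2 at none. Of the 32 fallers, 11 were called lower at all 4 times, 4 at 6 h alone and 8 at none. The shares of all clones with these patterns are not given here, so the counts only describe the members. A call at 6 h without one at 36 h is not a test of change between them. In the direct contrast of 36 h with 6 h limma called 0 of the 56 clones, where 0.283% of all clones were called. At an unadjusted limma p under 0.05 there were 25 of the 56, against 1762 of the 14816 clones tested. The difference of 36 h from 6 h had a median of -0.53 among the risers, from -0.91 to 0.46, and of 0.26 among the fallers, from -0.47 to 0.96, against 0.017 over all clones. At the unadjusted threshold 13 risers were lower and 1 higher at 36 h than at 6 h, and 10 fallers were higher and 1 lower. The shares of all clones by direction at this threshold are not given here, so these counts only describe the members.

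The faller ranked 3rd was the furthest from 0 of the 56 tested clones at every later time. It was at -3.08 at 6 h and -2.87 at 36 h, and its condition means from 6 h on lay between -2.53 and -1.94 with DMSO, between -3.91 and -3.50 with HMBA and between -3.37 and -3.003 with TSA. At 1 h its means had been -1.19 with DMSO, -0.77 with HMBA and -1.06 with TSA. The riser ranked 16th had the highest value at 36 h, 1.26 averaged over the chemicals (limma adjusted p = 0.00137). These 2 clones were picked out after their values were seen.

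A pair of fallers was called higher at a later time. At 6, 12 and 36 h 1 of the 32 fallers was called higher, where 5.64%, 6.35% and 3.69% of all clones were. The share of the fallers was below that of all clones at each of these times. The clone ranked 42nd was called higher at 6 h (0.52, limma adjusted p = 0.0256) and at 12 h (0.49, adjusted p = 0.0297). The clone ranked 38th was called higher at 36 h (0.63, adjusted p = 0.037). Their first-hour means in the deposited ratios had been -0.65 and -0.68. Without 1 replicate in turn, no faller was called higher at 36 h, and at 6 h and 12 h none was without replicate 1 or without replicate 3.

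The other 4 members were not tested because they were missing from too many arrays: the riser ranked 58th and the fallers ranked 12th, 41st and 51st. All were dim, with median before-treatment intensities between 196 and 352 on the first-hour arrays. The riser was at 1.16 after 36 h of DMSO and 1.61 after 36 h of TSA. By value the fallers varied between the chemicals at 36 h. The clone ranked 12th stood at -0.43 with DMSO, 0.64 with HMBA and 1.18 with TSA. The clone ranked 41st stood at -0.22 with DMSO and 1.07 with TSA, and had too few arrays with HMBA. The clone ranked 51st stood at -0.11 with DMSO, 1.31 with HMBA and -0.028 with TSA.

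**Figure D4:**
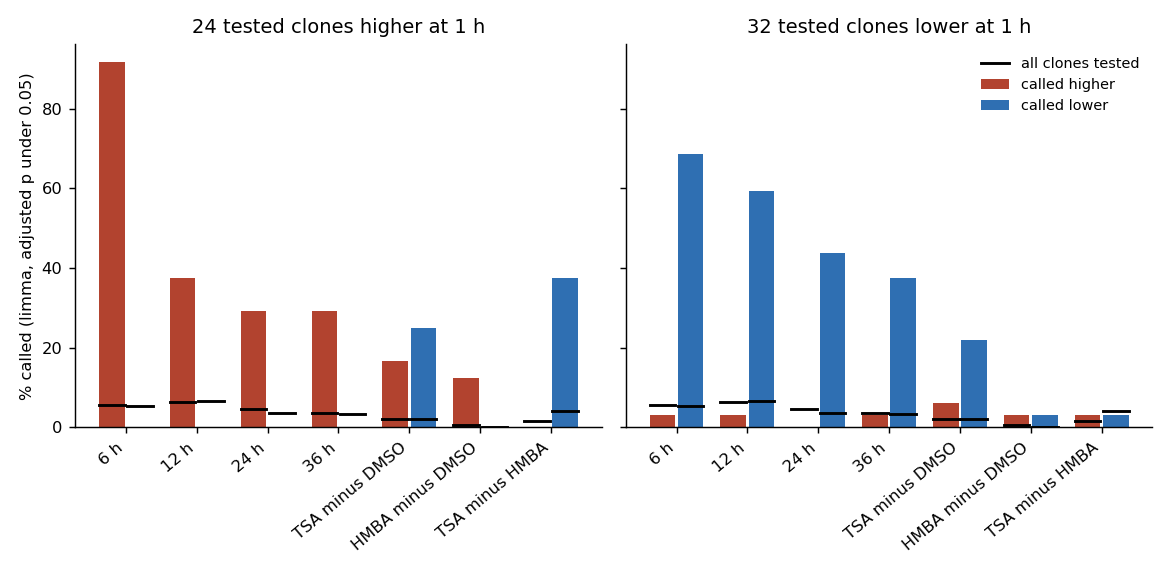
Share of the tested risers (left) and fallers (right) called higher or lower (y axis, percent, limma adjusted p under 0.05) at each time against before treatment and in each difference between chemicals from 6 to 36 h (x axis); black lines are the share of all 14816 clones tested. At 6 h, 22 of 24 risers were called higher and 22 of 32 fallers lower.

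The chemicals were then compared over the 4 matched times from 6 to 36 h, each at its single dose. Over risers and fallers 19 of 56 clones were called between TSA and DMSO (4.19% of all clones), 11 between TSA and HMBA (5.76%) and 5 between HMBA and DMSO (0.918%). By their medians the risers were near their starting level from 12 h on with TSA and above it with HMBA and DMSO. At 6 h TSA gave a median condition mean of 0.86, HMBA of 0.99 and DMSO of 0.74. At 12 h, in the same order, it was 0.11, 0.47 and 0.39, at 24 h it was -0.0095, 0.66 and 0.39, and at 36 h -0.042, 0.51 and 0.36. The ranges overlapped at every time, and after 36 h of TSA the risers ran from -0.47 to 1.61.

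In the test of the difference between TSA and HMBA, 9 of the 24 risers were called lower with TSA and 0 higher, where 4.11% of all clones were called lower. The median difference of the risers was -0.41, from -0.92 to 0.49. H3013D07 was among the 9. Some of the 9 had similar values, and whether they share a gene is not known here. The clones ranked 7th (H3013D07), 8th, 15th and 25th stood at 1.37, 1.31, 1.30 and 1.45 after 6 h of HMBA. Risers outside the 9 reached such values too, with those ranked 21st and 39th at 1.36 and 1.45. Those ranked 11th, 19th, 28th and 36th stood at -0.64, -0.42, -0.66 and -0.68 after 12 h of TSA. The 43rd, also among the 9, stood at -0.49 there. Values in single conditions do not show that clones are alike over all conditions. The 9 clones may still stand for fewer transcripts, which was not tested. The 9 had a median of 1.15 after 6 h of HMBA and 0.26 after 6 h of TSA, and of 0.57 and -0.42 at 12 h; they were picked by this test, so the medians only describe them. At 36 h they were at 0.60 with HMBA, from 0.39 to 1.40, and at -0.056 with TSA, from -0.18 to 0.18. The 36 h values were part of the test that picked these clones, so this separation is also only a description. TSA and HMBA arrays carried every one of the 60 clones on the same slide of the pair. With arrays scaled to the same spread 3 of the 24 risers were called lower with TSA.

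Between TSA and DMSO, 6 risers were called lower with TSA (2% of all clones) and 4 higher (2.19%). The 6 had a median of 0.65 after 36 h of DMSO and -0.048 after 36 h of TSA. The 4 went the other way, with a median of 1.49 after 6 h of TSA and 0.48 after 6 h of DMSO, and of 1.04 and 0.27 at 24 h. This count is unstable: it was 1 without replicate 3, 2 without replicate 4 and 2 with all 15 conditions in the model. Of the 6 lower with TSA than with DMSO, 5 were also among the 9 lower with TSA than with HMBA. Both tests use the same TSA values, and the 5 include the clones ranked 11th, 19th, 28th and 36th. Between HMBA and DMSO 3 risers were called higher with HMBA (0.736% of all clones), and 0 lower (0.182%).

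The fallers had similar medians with the 3 chemicals at 36 h. At 6 h TSA gave a median of -0.95, HMBA of -0.72 and DMSO of -0.71. At 12 h they were -0.78, -0.51 and -0.59, at 24 h -0.51, -0.51 and -0.35, and at 36 h -0.30, -0.31 and -0.32. TSA was called lower than DMSO for 7 of the 32 fallers (2% of all clones) and higher for 2 (2.19%). The higher count was 0 without replicate 2, 1 without replicate 3 and 1 with all 15 conditions. The 7 lower clones were at a median of -0.95 after 6 h of TSA and -0.13 after 6 h of DMSO. Between TSA and HMBA 1 faller was called higher with TSA (1.65% of all clones) and 1 lower (4.11%), shares of the fallers that are near or below those of all clones. Between HMBA and DMSO 1 was called higher (0.736%) and 1 lower (0.182%), too few to describe the fallers.

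The count for HMBA and DMSO is small and unstable. Of the 5 clones, 4 were higher and 1 lower with HMBA. The count was 1, 2, 0 and 1 without replicates 1, 2, 3 and 4, and with arrays scaled to the same spread it was 2, 1 in each direction. DMSO arrays carried 8 of the 60 clones on the other slide of the pair than HMBA and TSA arrays did. Of the 7 such clones tested, 2 were called lower with TSA than with DMSO (2% of all clones) and 0 differed between HMBA and DMSO (0.918%). Among the 49 on the same slide TSA was called higher than DMSO for 6 (2.19%) and lower for 11 (2%). TSA was called lower than HMBA, on the same slide throughout, for 3 of the 7 and 7 of the 49 (4.11%). It was called higher for 0 and 1 (1.65%). For the clones on another slide, slide and chemical cannot be told apart.

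**Figure D5:**
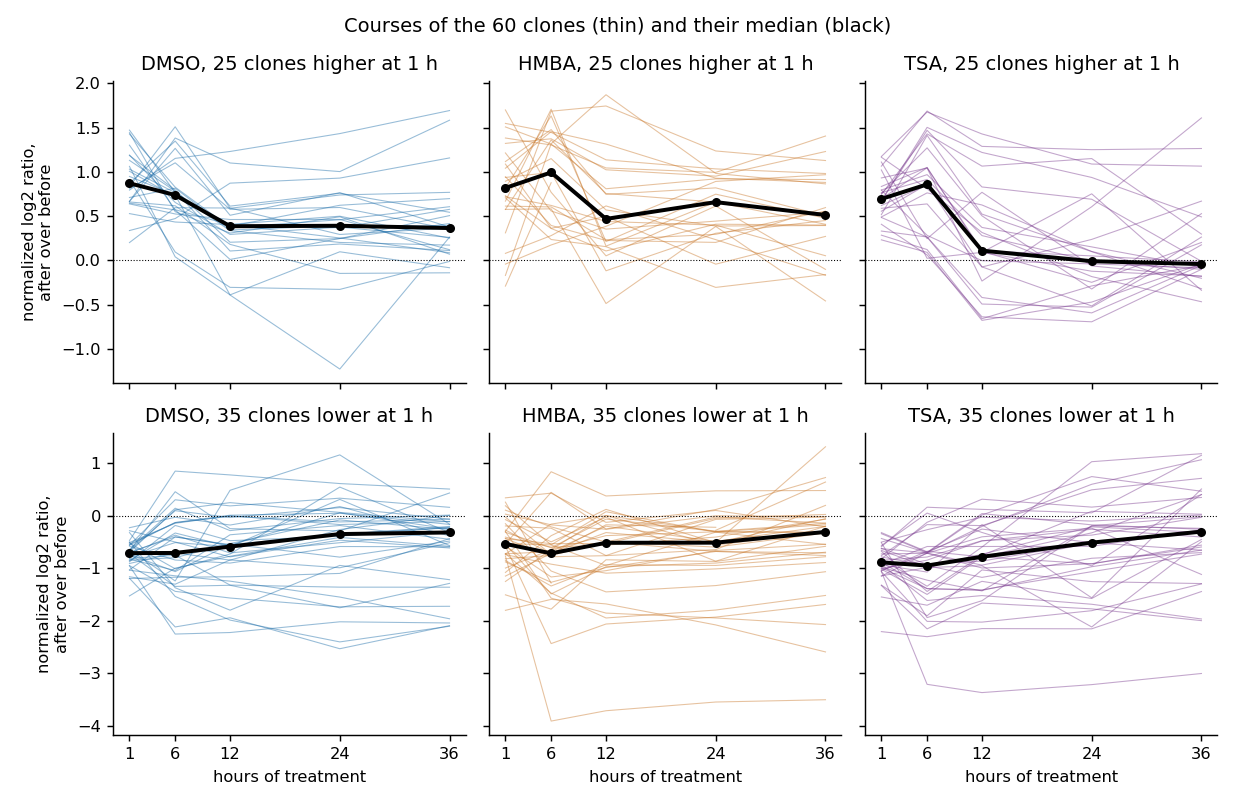
Log2 ratio after over before treatment (y axis) against hours (x axis) for the 25 risers (top) and 35 fallers (bottom) with each chemical; thin lines are clones and black lines their median. The median of the risers was 0.86 at 6 h and 0.11 at 12 h with TSA, and at 12 h it was 0.39 with DMSO and 0.47 with HMBA.

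The clones ranged from dim to bright and came from many plates. Their median before-treatment intensity on the 8 first-hour arrays was 1415 for the risers and 930 for the fallers, against 797 for the 16300 clones with 8 values. Among the risers 8 lay in the brightest 25% of those clones and 10 in the dimmest 25%, and among the fallers 7 and 5. The identifiers give a plate, a row letter and a column, and the 60 clones came from 49 of 238 plates, with at most 3 on 1 plate. Column 6 held 10 of the 60 clones, or 16.7%, against 7.9% of the clones with 8 values. The other columns are not given here, and the reason was not tested.

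The other clones of a riser's plate row had a median first-hour mean of 0.034, with a range over rows from -0.14 to 0.26, and those of a faller's row -0.033, from -0.22 to 0.13. The row median had the sign of the listed clone for 18 of 25 risers and 23 of 35 fallers. The share over all clones is not given here, so these counts only describe the members. With plate-row medians removed from the deposited ratios, 42 of the 60 clones were chosen again. For the 4 clones shown by identifier the medians of the rest of the row were 0.0099 for H4023C04, 0.068 for H3013D07, -0.17 for H3113C06 and 0.046 for H4015E06.

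In 4 cases a pair of members came from touching wells, 3 of them with the same direction. H3013D07 belonged to 2 of these pairs. With the riser ranked 15th, in the next well of its row, it correlated at r = 0.984 over the 12 later conditions. That clone also stayed high with HMBA, at 1.40 after 36 h, and not with TSA, at -0.10. With the riser ranked 19th, diagonally next to it, the correlation was 0.408. The points share slides and neighbouring wells, so these values only describe likeness, and the files do not say whether the paired clones share a gene.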

How the data were processed

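The deposited files hold spot intensities on a linear scale for 60 arrays of 2 slides each, before and after treatment, per the file headers. The authors also deposited 1 linear ratio per clone and array, after over before treatment. Scanning, flagging, background handling and the centring of the ratios are not given in the sources used here. Median ratios lay between 0.924 and 1.07, and log2 of the ratio correlated with the log2 ratio computed here at 0.899 to 0.996, which settled the direction but not the centring.

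The members were chosen from log2 of the deposited ratios. For all other values, R 4.3.3 and limma 3.58.1 were used: normexp with an offset of 50, then a loess fit per slide (span 0.3). Technical arrays were averaged within dye orientation, then over orientations, to 1 value per condition. Clones listed on at least 3 of 4 arrays in each of 12 conditions (6 to 36 h) were tested with an additive limma model of time point and chemical, with 6 residual degrees of freedom; the 1 h conditions stayed out because 2 of them chose the members. The pipeline was also run on simulated data with known changes. Those data held no shared before-treatment RNA, so that run cannot show how a shared extract affects the calls. The p-values rest on how far conditions lie from the model and cover no repeated culture; intensity and the number of arrays limit precision. The files hold no background measure, so no clone could be called below background.

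The members and lists were chosen with earlier results of these data known. The 2 highest-ranked risers and fallers are named, since no gene names were matched and the gene and marker lists could not be used. Alternatives were the deposited ratios, no background correction, scaled arrays, all 15 conditions, no listing minimum, plate-row medians removed, a replicate block and leaving out each replicate.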

Additional observations from a re-analysis of the deposited data

Results flagged for a closer look

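The 3 differences between chemicals over 6 to 36 h were tested directly and had 19 of 56 members called between TSA and DMSO (4.19% of all clones), 5 between HMBA and DMSO (0.918%) and 11 between TSA and HMBA (5.76%). H3013D07 differed by 0.749 between HMBA and DMSO and by -0.79 between TSA and HMBA. Dixon's test on the 4 arrays of a condition was applied to 90 sets of values and singled out 2, where chance singles out about 1 in 20 sets. H3113C06 was at -0.273 on replicate 2 of DMSO 36 h, and its other 3 arrays lay between -0.72 and -0.66. The median of the risers was 0.627 on replicate 3 of DMSO 6 h, and between 0.793 and 0.807 on its other 3 arrays.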

How the results depend on the processing

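Leaving out replicates 1 to 4 in turn gave 32 to 39 calls for 6 h, 20 to 28 for 12 h, 19 to 24 for 24 h and 12 to 17 for 36 h, 0 to 0 for 36 h minus 6 h, 13 to 17 for TSA minus DMSO, 0 to 2 for HMBA minus DMSO, 8 to 12 for TSA minus HMBA and 13 to 16 at HMBA 1 h, and chose 43 to 47 of the 60 clones again; those of the list and of replicates 1 and 2 at HMBA 1 h were added after the data were seen. Without replicates 1 to 4 in turn, 54, 54, 46 and 55 members were tested. At 6 h the calls over all clones were then 1148 of 13399, 1131 of 13007, 1240 of 13151 and 1073 of 13876. At HMBA 1 h the size was asked only on the remaining arrays, an easier limit than in the main count of 11. Calls of 36 h minus 6 h were 1 with the deposited ratios, 1 without background correction and 1 with plate-row medians removed, a faller that was higher at 36 h in each. HMBA minus DMSO had 1 call with the deposited ratios, 2 with scaled arrays and 2 without a listing minimum, and TSA minus HMBA had 4 with scaled arrays. At HMBA 1 h, 7 clones passed the size with the deposited ratios, 2 with the sign of replicate 3 turned and 1 with that of replicate 4 turned. The top 30 holds 30 of the 60 clones by construction. Without 1 replicate, 3 uncalled differences of named clones changed sign. H4023C04 ran from -0.22 to 0.050 (HMBA minus DMSO), above 0 without replicate 1. H4015E06 ran from -0.14 to 0.085 (TSA minus HMBA), above 0 without replicates 1 and 4 (0.072). H3013D07 ran from -0.099 to 0.016 (TSA minus DMSO), above 0 without replicate 3. The other totals over risers and fallers, apart from the replicate block, moved by no more than 1.5 times. The causes were not tested.

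Replicate numbers were not taken to pair the arrays. Deviations of same-numbered arrays correlated between -0.164 and 0.55 with a median of 0.151, against 0.152 for other-numbered arrays of the same dye orientation. An array-level fit took the replicate number as a block and the condition as a random block. It counts arrays and so has more residual degrees of freedom. Among the members it had 48 calls for 6 h, 36 for 12 h, 29 for 24 h and 32 for 36 h. Of all 14816 clones it called 3017, 3323, 2232 and 1884 at these times. The main fit called fewer of all clones, 1627, 1909, 1237 and 1061. For 36 h minus 6 h the array-level fit called 20 members, 11 of them risers that were lower, and 806 of all clones. It called 26 members for TSA minus DMSO (1696 of all clones), 15 for HMBA minus DMSO (1123) and 18 for TSA minus HMBA (2147). In that fit H3113C06 passed for 36 h minus 6 h (0.68, limma adjusted p = 0.035) and TSA minus DMSO (-0.60, adjusted p = 0.017), and H3013D07 for 36 h minus 6 h (-0.53, adjusted p = 0.000319). At 36 h 16 risers were called higher in that fit, whose share of all clones by direction is not given here. Dim spots limit precision, and members that were rarely listed had no test.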
